A study of Mus musculus with 10 samples.

Results

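The immunoglobulin switch mu fragment (Smu) sequenced here held 6 copies of the palindrome AGCT, which reads the same on both DNA strands and places a preferred target cytosine of the deaminase AID on each of them. Each copy gave 1 G and 1 C of the reference strand, so the copies comprised 12 positions of the 243 C:G positions used. They were defined by sequence, as every C with A and G before it and T after it on the strand that carries it, in the reference bases of the UNG libraries. The motif itself was chosen with earlier results of these data known. Positions are named by their base on the reference strand and their number along the fragment (C282), and at a G the cytosine open to AID lies on the opposite strand.

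AID (activation-induced cytidine deaminase) turns cytosine into uracil in the DNA of activated B cells, most readily in the motif WRC, where W is A or T and R is A or G. Uracil left in place is copied as thymine, which gives a C:G to T:A transition. UNG (uracil-DNA glycosylase) removes the uracil and leaves a site without a base, and copying past such a site can also give C:G to G:C or C:G to A:T transversions. When uracils on both strands lie close together, as AGCT permits, their processing can yield the double-strand breaks from which class switch recombination starts. Smu lies in the intron upstream of the Ighm constant exons on mouse chromosome 12 and is built of short repeats, many of which contain AGCT.

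Libraries came from spleen B cells of UNG-/-, UNG+/+ and AID-/- mice, with 4, 4 and 2 libraries. All 3 groups were treated alike: cells were stained with CFSE (5 µM), a dye diluted by division, and stimulated with BAFF (20 ng/ml), IL4 (10 ng/ml) and LPS (25 µg/ml) over 4 days. After sorting for 5 or more divisions, Smu was amplified from the DNA of the cells. The UNG-/- and UNG+/+ cells both carried AID, and the AID-/- libraries served as the background, which includes errors of PCR and sequencing. The comparison of UNG-/- with UNG+/+ cells concerns which substitutions remain after deamination when uracil cannot be excised by UNG. The fragment covers neither gene that was knocked out, so the genotypes are those of the labels.

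The sequences around the copies are shown because the motif is the same in all 6 and only the flanks differ. Each line gives 12 bases before and after the motif on the reference strand, 5′ to 3′, as read from the reference bases in the deposited tables of the UNG libraries, with AGCT in capitals. Fragment positions of the motif precede each sequence, and for the fragment no genome build or coordinates are given in the sources used here.
Copy 1, positions 24 to 27: atttaaattggaAGCTaatttagaatca
Copy 2, positions 280 to 283: aaggaaggccacAGCTgtacagaattga
Copy 3, positions 390 to 393: ccagactcataaAGCTtgctgagcaaaa
Copy 4, positions 455 to 458: tctaaaaagcacAGCTgagctgagatgg
Copy 5, positions 460 to 463: aaagcacagctgAGCTgagatgggtggg
Copy 6, positions 533 to 536: tgaggtaagcaaAGCTgggcttgagcca
Copy 2 lay in the longest palindrome, the 8 bases ACAGCTGT. Copies 3 and 4 extended to the 6-base palindromes AAGCTT and CAGCTG, and copies 1, 5 and 6 went no further than AGCT. Copies 2 and 4 thus share the 6 bases CAGCTG, and copies 4 and 5 are neighbours separated by 1 base. In the AID-/- libraries the reference differed at copy 4, where it read as follows, with the bases that stand in place of AGCT in capitals.
Copy 4 in AID-/- libraries: tctaaaaagcatGGCTgagctgagatgg
The AID-/- libraries therefore had no AGCT at copy 4, and comparisons with them at G456 and C457 are not matched for sequence.

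Quality-filtered base reads per library ranged from 112909908 to 255310423, and coverage of the 12 positions from 8118 reads (C535, UNG+/+ library 1) to 464466. At that lowest coverage, 36 of 8118 reads at C535 carried C:G to T:A, or 44.3 per 10000 with an exact 95% interval of 31.1 to 61.3. Such intervals cover counting error only, because reads are PCR copies without molecular identifiers. Whether the libraries of a group stem from separate animals is not stated, so the p-values measure only how these libraries vary, which may be technical variation. UNG-/- libraries 1, 2 and 4 carried a second base in 48.0%, 48.2% and 45.7% of reads at polymorphic position 225, against 0.153% in UNG-/- library 3 and at most 0.256% in UNG+/+ libraries. At position 486 the shares were 43.5%, 44.3% and 41.8%, against 0.123% in UNG-/- library 3 and at most 0.241% in UNG+/+ libraries. At 225, 455 and 486 the second base was the reference base of the AID-/- libraries. At position 455, the A of copy 4, the same 3 libraries had the second base in 3.49%, 3.55% and 1.96% of filtered reads, but only 61.8 to 62.0% of their bases passed the quality filter there, so the share of their DNA that lacked AGCT at copy 4 was not measured. Comparisons of UNG-/- with UNG+/+ cells at G456 and C457 may thus not be matched for sequence either. The filter also passed only 90.9 to 91.6% of their bases at the adjoining G456, against 98.8% in UNG-/- library 3 and 98.0 to 98.9% in UNG+/+ libraries. Counts of positions called are also given for UNG-/- library 3 alone where it changes them, and the shares, ratios and sums over copies also without copies 4 and 5.

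Without UNG, transitions were more frequent at all 12 palindromic cytosines. Both kinds of transversion, averaged over the 12, were close to or below their level in AID-/- cells. Substitutions are given per 10000 quality-filtered reads. Averaged over the 12 positions, C:G to T:A stood at 105 ± 23.4 in UNG-/- libraries and 36.4 ± 4.71 in UNG+/+ libraries (SD, n = 4 each), against 1.14 and 1.21 in the AID-/- libraries. The UNG-/- libraries 1 to 4 gave 117, 126, 104 and 72.4, and the UNG+/+ libraries 43.4, 33.2, 34.6 and 34.6, so the genotypes did not overlap. Library 4 was the lowest of the UNG-/- group and library 1 the highest of the UNG+/+ group.

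Copy 2 carried the most transitions in both genotypes. At C282 the UNG-/- libraries 1 to 4 held 325, 361, 246 and 193 transitions per 10000 reads, against 114, 85.6, 78.5 and 84.7 in UNG+/+ libraries and 1.68 and 1.54 in AID-/- libraries. This cytosine ranked 3rd of the 243 C:G positions in UNG-/- and 1st in UNG+/+ libraries by mean transition frequency, and the lowest UNG-/- library exceeded the highest UNG+/+ library. Its partner on the other strand, G281, had 139, 150, 143 and 95.9 in UNG-/- libraries, against 63.9, 56.0, 55.7 and 64.4 in UNG+/+ libraries. Here too the genotypes did not overlap, and G281 ranked 10th in UNG-/- and 3rd in UNG+/+ libraries.

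The adjoining copies 4 and 5 were next in UNG+/+ cells. Transitions at G461 of copy 5 were 173, 191, 159 and 122 per 10000 reads in UNG-/- libraries, against 59.2, 44.5, 50.4 and 48.4 in UNG+/+ libraries. At C462 of the same copy they were 109, 111, 85.5 and 58.4 in UNG-/- libraries, against 36.9, 23.1, 29.2 and 25.2 in UNG+/+ libraries. Both positions were higher in every UNG-/- library than in any UNG+/+ library. At copy 4, G456 had 127, 130, 172 and 82.9 in UNG-/- libraries, against 62.1, 49.4, 56.4 and 53.3 in UNG+/+ libraries. C457 had 39.5, 43.7, 62.7 and 22.8 in UNG-/- libraries, against 23.9, 21.5, 20.5 and 19.5 in UNG+/+ libraries. C457 was thus the only palindromic position where the genotypes overlapped in transitions, through UNG-/- library 4. At both positions of copy 4 the highest library was UNG-/- library 3, the only UNG-/- library without the second base at position 455, whereas library 2 was the highest of the group at 9 of the other 10 positions and library 1 at the other. The part that the second haplotype plays in these values was not tested.

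The remaining copies, 1, 3 and 6, have no second copy beside them. At C535 of copy 6 the UNG-/- libraries had 141, 144, 102 and 74.6 transitions per 10000 reads, against 44.3, 31.9, 34.1 and 36.1 in UNG+/+ libraries. At C392 of copy 3 the values were 121, 132, 98.4 and 79.0 in UNG-/- libraries, against 41.6, 28.8, 33.0 and 30.7 in UNG+/+ libraries. Their partners on the other strand were lower in both genotypes, with means of 67.1 ± 16.9 in UNG-/- and 19.1 ± 3.61 in UNG+/+ libraries at G534, and 41.7 ± 10.7 and 13.1 ± 2.87 at G391, in the same order (SD, n = 4 each). Copy 1, near the start of the fragment, had the lowest mean of the 6 copies in both genotypes, although G391 and C457 averaged less than either of its positions in UNG-/- libraries, and G391 less than C26 in UNG+/+ libraries. It had 53.6, 59.9, 38.9 and 31.9 at G25 in UNG-/- libraries, against 16.1, 11.8, 11.6 and 9.87 in UNG+/+ libraries. C26 averaged 43.9 ± 9.50 in UNG-/- and 15.9 ± 1.7 in UNG+/+ libraries (SD, n = 4 each). None of these 6 positions overlapped between the genotypes.

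**Figure D1:**
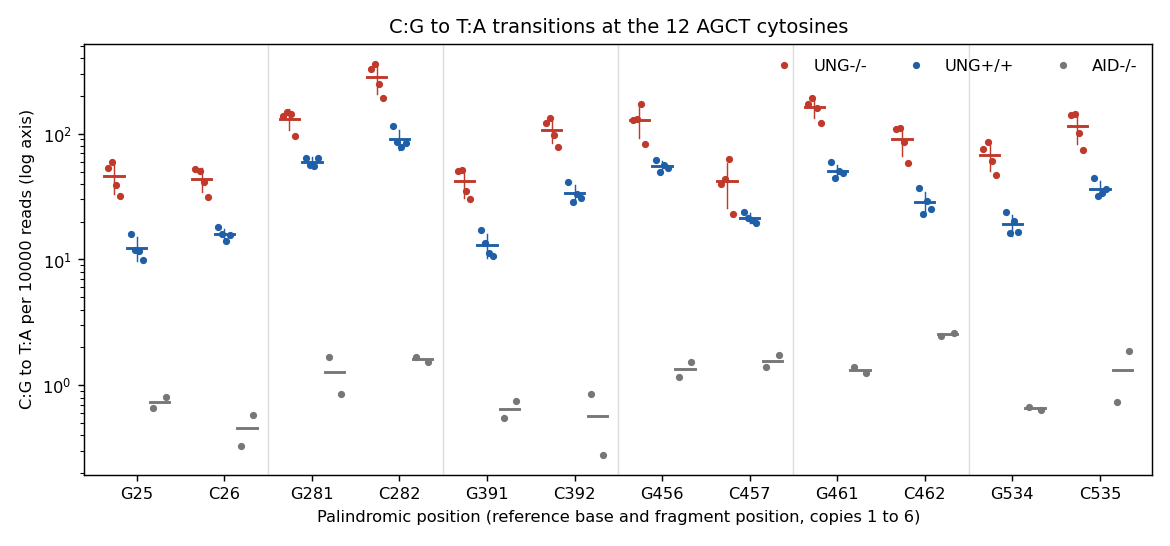
C:G to T:A substitutions per 10000 quality-filtered reads (log axis) at the 12 palindromic positions, ordered by copy. Dots are libraries, horizontal bars means and vertical bars ± SD (4 UNG-/- and 4 UNG+/+ libraries; for the 2 AID-/- libraries the mean alone). UNG-/- libraries stand above UNG+/+ libraries at every position except C457, where they overlap, and C282 is the highest position in both genotypes.

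In a quasi-likelihood test in edgeR over all C:G positions, with coverage as offset, all 12 positions were higher in UNG-/- than in UNG+/+ cells, against 84.3% of the 236 C:G positions tested. Log2 differences ran from 0.99 at C457 (adjusted p = 6.55e-05) to 1.91 at G25 (adjusted p = 3.10e-13), with a median of 1.67 over the 12 and 1.47 over all 236. Groups did not overlap at 11 of the 12 positions, and at 75.7% of all 243 in the same direction. The count of 12 was the same within replicate numbers 1 and 2, within 3 and 4, and with UNG-/- library 3 as the only UNG-/- library. TMM scaling, which by construction sets the bulk of positions to no change, took the place of the coverage offset. It moved the median of all positions by -1.52 to -0.05. It left 8 of the 12 positions above 0, called G25 higher and G281 lower (log2 -0.53, adjusted p = 0.0345), and split all calls 33 higher to 38 lower, against 199 higher to 1 lower with the coverage offset. On that scale the median of the 12 was 0.20. Both genotypes with AID were higher than AID-/- cells at all 12 positions, against 87.3% of C:G positions for UNG-/- and 64.8% for UNG+/+ cells, with medians over the 12 of 6.53 and 4.90 on the log2 scale.

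**Figure D2:**
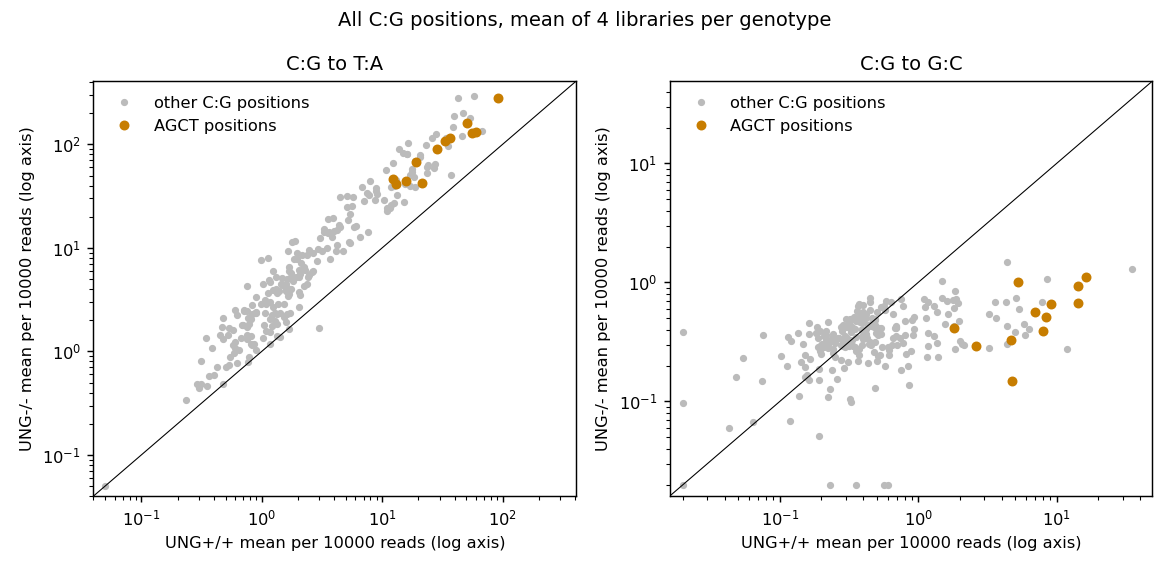
Mean C:G to T:A (left) and C:G to G:C (right) per 10000 reads at every C:G position, UNG-/- on the vertical and UNG+/+ on the horizontal axis (both log, means of 4 libraries per genotype). Values below 0.05 (left, 1 position per genotype) and 0.02 (right, 5 in UNG-/- and 3 in UNG+/+) are drawn at those floors. The 12 palindromic positions lie above equality within the cloud of other positions on the left, and far below equality on the right.

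C:G to G:C transversions showed the opposite pattern. Their mean over the 12 positions was 0.735, 0.470, 0.511 and 0.619 per 10000 reads in UNG-/- libraries 1 to 4, against 10.3, 9.37, 5.88 and 6.60 in UNG+/+ libraries and 0.449 and 0.662 in AID-/- libraries. UNG-/- libraries thus lay with AID-/- libraries and did not overlap with UNG+/+ libraries. UNG+/+ libraries 1 and 2 were higher than 3 and 4, and passed the quality filter in 98.3% and 98.2% of bases, against 99.0% in each of libraries 3 and 4. The part of base quality in this difference was not tested.

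The transversions were most frequent at C535, C392 and C282, which ranked 2nd to 4th of all C:G positions in UNG+/+ cells after C506, a cytosine in AACT with 35.2 ± 12.6 (SD, n = 4). C535 had 2.90, 0.707, 0.471 and 0.353 per 10000 in UNG-/- libraries, against 16.0, 25.2, 11.2 and 12.6 in UNG+/+ libraries. C392 had 0.934, 0.824, 0.736 and 1.23 in UNG-/- libraries, against 19.7, 16.9, 9.31 and 11.5 in UNG+/+ libraries. C282 had 0.209, 1.25, 0.496 and 0.712 in UNG-/- libraries, against 18.1, 15.4, 10.7 and 12.8 in UNG+/+ libraries. At C535 and C282 the UNG-/- means, 1.11 and 0.666, lay near those of AID-/- cells, 0.824 and 0.688. At C392 every UNG-/- library was above both AID-/- libraries, which had 0.300 and 0.309. At each of these 3 cytosines the lowest UNG+/+ library was above every UNG-/- library. At the other end, G25 had 0.188, 0.515, 0.298 and 0.645 in UNG-/- libraries, against 2.43, 1.33, 2.18 and 1.35 in UNG+/+ libraries, which still did not overlap. G456 had 0, 0.105, 0.289 and 0.203 in UNG-/- libraries, the 0 allowing up to 0.254, against 5.26, 5.07, 3.56 and 5.18 in UNG+/+ libraries. G534 had 1.54, 0, 1.08 and 0 in UNG-/- libraries, where the thinner coverage lets a 0 allow up to 1.87 and 0.965, against 13.0, 11.3, 5.73 and 6.61 in UNG+/+ libraries.

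All 12 positions were lower in UNG-/- than in UNG+/+ cells (edgeR quasi-likelihood), against 28.3% of the 191 C:G positions tested for this type, and all 12 were free of overlap, against 17.3% of the 243. The log2 differences ran from -2.11 at G25 (adjusted p = 0.000445) to -4.71 at G456 (adjusted p = 9.33e-08), with a median of -3.90 over the 12 and -0.39 over all tested. Under TMM scaling, which moved the median of all positions by 0.44, the 12 were still lower, between -1.33 and -4.27, with 20 higher to 42 lower calls over all positions, against 2 to 54 with the coverage offset. The 12 were called within replicate numbers 1 and 2 and within 3 and 4. With UNG-/- library 3 as the only UNG-/- library, 11 of the 12 were called, and C26 was not (log2 -2.21, adjusted p = 0.0889). UNG+/+ cells were higher than AID-/- cells at all 12, against 23.6% of positions, and at 10 without AID-/- library 1. UNG-/- cells differed from AID-/- cells at none of the 12 in edgeR, DESeq2 or limma, and edgeR called 0% of the 191 higher and 0.524% lower. Of the 12, 1 had an unadjusted p under 0.05. The largest difference of the 12 there was at C392, 1.59 ± 0.48 (log2, SE) with an adjusted p of 0.308. A position could pass the filter through UNG+/+ reads alone, and values in the other 2 genotypes were near the floor. G456, for example, averaged 0.149 in UNG-/- and 0.0934 in AID-/- libraries. With so few reads and 2 AID-/- libraries, the lack of calls does not show that the 2 genotypes were equal.

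C:G to A:T transversions were also lower without UNG, by less. Their mean over the 12 positions was 3.00 ± 0.885 per 10000 in UNG-/- and 8.16 ± 0.534 in UNG+/+ libraries (SD, n = 4 each), with 3.63 and 4.65 in AID-/- libraries, so the background of this type was higher than that of C:G to G:C. C282 stood out, with 2.79, 3.20, 5.21 and 3.18 in UNG-/- libraries, against 26.6, 20.7, 17.2 and 17.7 in UNG+/+ libraries and 3.95 and 5.19 in AID-/- libraries. It was the highest of all 243 C:G positions for this type in UNG+/+ cells, and 21st in UNG-/- cells. C392 had 1.76, 2.16, 4.08 and 1.64 in UNG-/- libraries, against 11.8, 10.9, 11.2 and 11.2 in UNG+/+ libraries. C26 did not separate, with 4.83, 3.43, 5.89 and 4.80 in UNG-/- libraries, 2.67, 5.51, 6.91 and 6.87 in UNG+/+ libraries, and 5.35 and 8.80 in AID-/- libraries.

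The edgeR test called 11 of the 12 lower in UNG-/- cells, all but C26 (adjusted p = 0.630), against 20.3% of the 231 C:G positions tested. C282 had a log2 difference of -2.51 (adjusted p = 3.63e-07), C392 of -2.21 and G456 of -2.07 (adjusted p = 7.01e-06 each), and the other 8 called positions lay between -0.98 and -1.44. At 9 of the 12 the genotypes did not overlap, against 19.3% of the 243. This count was less stable than the others. It was 6 without UNG-/- library 1, 2 or 4, 3 within replicate numbers 3 and 4, 3 under TMM scaling (which moved the median of all positions by 0.50, with 4 higher to 13 lower calls, against 0 to 47), and 0 with UNG-/- library 3 as the only UNG-/- library. That library had the highest value of its group at 10 of the 12 positions. Against AID-/- cells, UNG+/+ cells were higher at 3 of the 12, C282, G456 and G534, against 4.33% of positions, but at none without either AID-/- library. UNG-/- cells differed from AID-/- cells at 0 of the 12 in edgeR, DESeq2 or limma (edgeR called 0% of the 231, and 1 of the 12 was lower at an unadjusted p under 0.05), and their mean differed from that of AID-/- cells by -1.14.

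**Figure D3:**
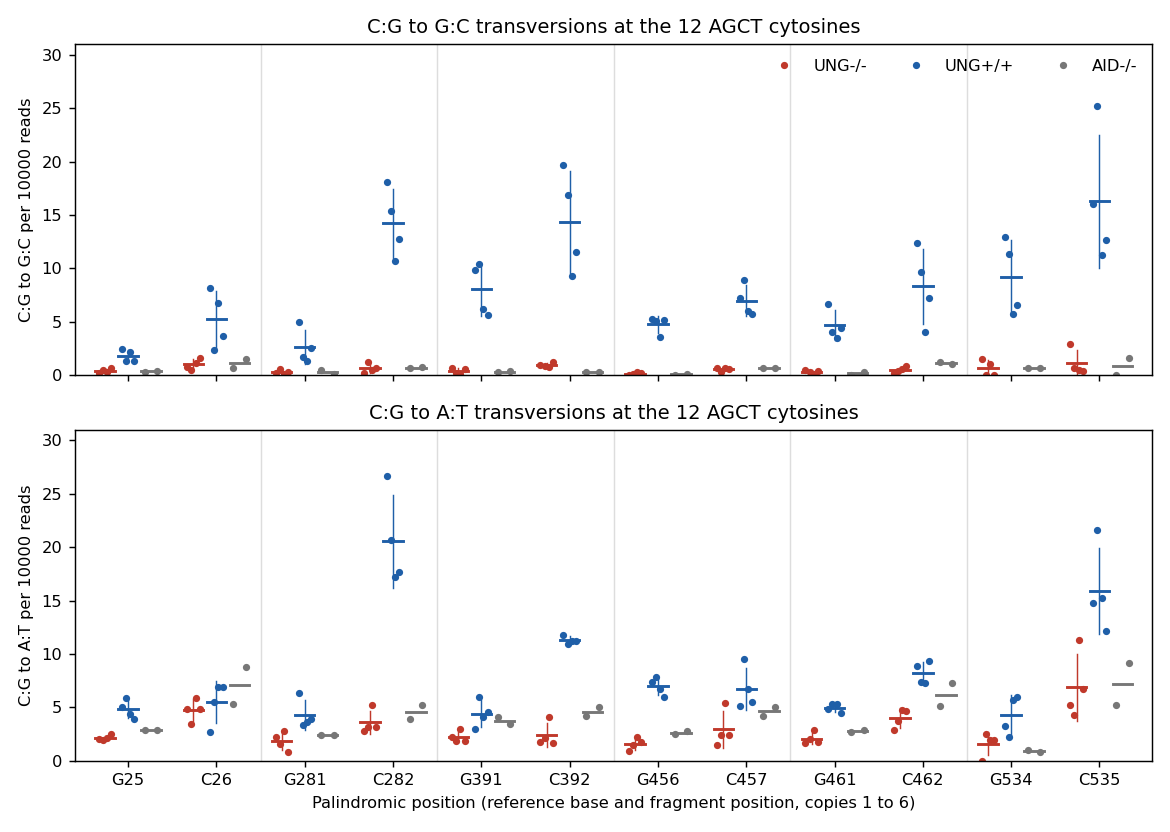
C:G to G:C (top) and C:G to A:T (bottom) transversions per 10000 quality-filtered reads at the 12 palindromic positions. Dots are libraries, horizontal bars means and vertical bars ± SD (4 UNG-/- and 4 UNG+/+ libraries; for the 2 AID-/- libraries the mean alone). UNG-/- and AID-/- libraries lie together near the axis for C:G to G:C, and C282, C392 and C535 are the highest in UNG+/+ libraries in both plots.

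Counting every substitution together, 11 of the 12 positions were higher in UNG-/- than in UNG+/+ cells (edgeR quasi-likelihood), against 56.1% of the 237 C:G positions tested, and 11 were free of overlap, against 47.7% of the 243. The exception in the test was C457, with 41.7, 46.5, 68.8 and 25.8 per 10000 in UNG-/- libraries, against 36.3, 39.9, 33.3 and 30.7 in UNG+/+ libraries (log2 0.39, adjusted p = 0.104). With UNG-/- library 3 as the only UNG-/- library, 10 of the 12 were called, C457 among them. TMM scaling moved the median of all positions by -0.75, left 11 of the 12 above 0 and C457 below it, and called 3 higher, with 56 higher to 66 lower calls over all positions, against 133 to 2 with the coverage offset. Both genotypes with AID were higher than AID-/- cells at all 12, against 58.6% of positions for UNG-/- and 40.1% for UNG+/+ cells.

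Because coverage cancels within a library, each transversion was also compared with transitions in the same libraries. The counts include the AID-/- background, which need not rise with transitions, so a rise in transitions alone can lower the ratio. C:G to G:C fell relative to C:G to T:A at all 12 positions in UNG-/- cells (edgeR quasi-likelihood, interaction of substitution type and genotype), against 70.6% of the 180 C:G positions tested. The shift ran from -3.72 at C26 to -6.13 at C282 on the log2 scale, with a median of -5.51 over the 12 and -2.10 over all 180. C:G to A:T fell relative to C:G to T:A at all 12 as well, against 83% of 230 positions, from -1.64 at C26 to -4.12 at C282, with medians of -2.86 over the 12 and -2.04 over all 230. Neither count fell under 10 in any alternative run. At C26, C:G to A:T itself was not called between the genotypes, and mean C:G to T:A was 2.77 times as high in UNG-/- cells. For C:G to A:T this comparison therefore cannot tell fewer transversions from more transitions.

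In UNG-/- libraries, 101 ± 0.831% of the excess over AID-/- cells at the palindromes was C:G to T:A (SD, n = 4), a share above 100 because C:G to A:T lay below the AID-/- level. The excess in UNG+/+ libraries consisted of 75.5 ± 3.76% C:G to T:A, 15.8 ± 3.09% C:G to G:C and 8.66 ± 1.25% C:G to A:T (SD, n = 4). Leaving out copies 4 and 5, which lie within 10 bases of polymorphic positions, gave 101 ± 0.855% C:G to T:A in UNG-/- and 72.5 ± 3.76% in UNG+/+ libraries (SD, n = 4 each). Within UNG+/+ libraries the copies differed among themselves. C:G to G:C made up 28.7 ± 5.43% of the excess at copy 3 and 26.2 ± 7.33% at copy 6, but 8.63 ± 1.27% at copy 2, the copy with the most transitions, with 16.3 ± 7.72% at copy 1 and 12.6 ± 3.89% at copy 5 (SD, n = 4 each). All 4 UNG+/+ libraries gave copy 3 at least 22.8% and copy 2 at most 9.89%.

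The same share was taken without subtraction as C:G to G:C reads over C:G to G:C plus C:G to T:A reads at a position. Its mean in UNG-/- libraries ranged from 0.123 ± 0.106% at G456 to 2.49 ± 1.79% at C26, and in UNG+/+ libraries from 4.08 ± 2.14% at G281 to 37.5 ± 4.24% at G391 (SD, n = 4 each). No UNG-/- library reached any UNG+/+ library at the same position. Over all 12, the share was 0.524 ± 0.256% in UNG-/- and 15.3 ± 2.14% in UNG+/+ libraries, and without copies 4 and 5 it was 0.574 ± 0.280% and 16.1 ± 1.86%, in the same order. For the 32 other positions in WGC, which are TGC or AGC outside AGCT, it was 0.711 ± 0.240% and 7.69 ± 0.307%, and for the 30 positions in WAC 0.791 ± 0.390% and 13.2 ± 0.325%, in the same order (SD, n = 4 each). Over all C:G positions outside the palindromes it was 1.98 ± 0.843% in UNG-/- and 13.6 ± 0.555% in UNG+/+ libraries (SD, n = 4 each). The palindromic share in UNG+/+ libraries was thus close to that of the rest of the fragment. These classes are set side by side as descriptions and were not tested against each other.

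**Figure D4:**
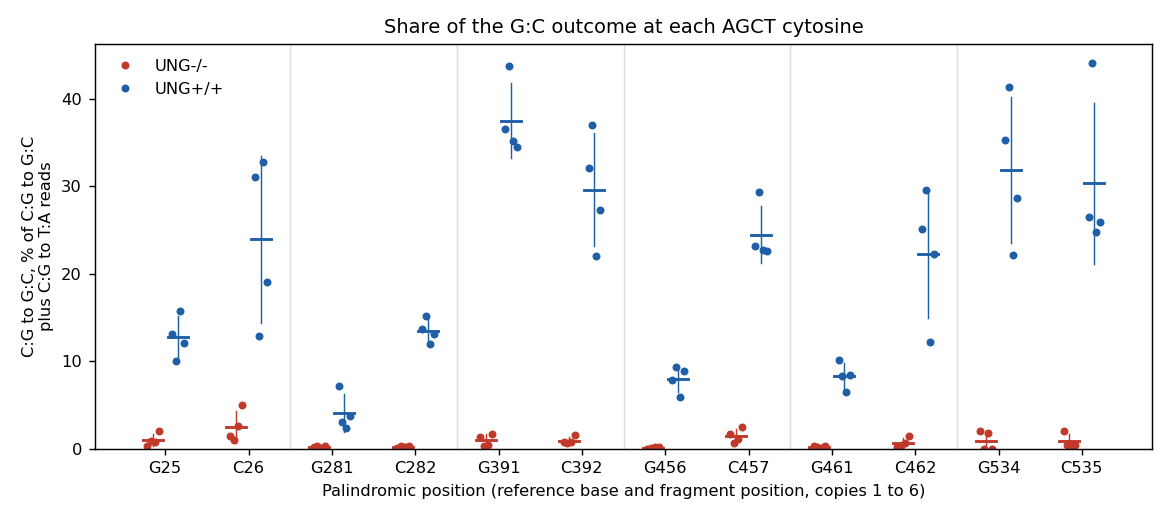
C:G to G:C reads as a percentage of C:G to G:C plus C:G to T:A reads at each palindromic position. Dots are libraries, horizontal bars means and vertical bars ± SD (4 per genotype, cut at 0). UNG-/- libraries stay near 0 throughout, and UNG+/+ libraries are lowest at G281 and highest at G391.

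The palindromes weighed differently in the fragment's total for each outcome. They make up 4.94% of the C:G positions used, and held 20.1 ± 0.708% of the summed C:G to T:A excess in UNG-/- and 25.2 ± 1.76% in UNG+/+ libraries (SD, n = 4 each). Copy 2 alone held 6.60 ± 0.154% and 8.81 ± 0.477%, in the same order. Of the C:G to G:C excess in UNG+/+ cells, the 12 positions held 39.0 ± 2.82% (SD, n = 4), whereas in UNG-/- cells no share could be given because the excess was near 0. The 8 positions left without copies 4 and 5 held 14.3 ± 0.390% of the C:G to T:A excess in UNG-/- and 17.9 ± 1.17% in UNG+/+ libraries, and 32.3 ± 2.38% of the C:G to G:C excess in UNG+/+ libraries (SD, n = 4 each). The palindromic excess of C:G to T:A was 1.80 ± 0.0653 times that of the other WGC positions in UNG-/- and 1.84 ± 0.227 times in UNG+/+ cells. For C:G to G:C in UNG+/+ cells the ratio was 4.67 ± 0.610, or 12.4 ± 2.28 with medians over positions in place of means (SD, n = 4 each). Against WAC positions, the ratio for C:G to T:A was 1.38 ± 0.0845 in UNG-/- and 2.39 ± 0.219 in UNG+/+ cells, with no overlap between the libraries of the genotypes. This separation rested on the mean: with medians over positions, chosen after the values were seen, the ratio ran over 2.22 to 2.89 in the 4 UNG-/- libraries and 2.50 to 4.02 in the 4 UNG+/+ libraries, which overlapped. Without copies 4 and 5 the ratio of means to WGC averaged 1.79 in UNG-/- and 1.78 in UNG+/+ libraries, and that to WAC lay between 1.32 and 1.41 in UNG-/- and between 2.09 and 2.49 in UNG+/+ libraries.

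Within each copy the 2 cytosines sit on opposite strands, side by side, and can be compared in the same libraries. Over all 6 copies transitions were nearly balanced, at 114 ± 28.6 per 10000 on C and 96.1 ± 18.9 on G in UNG-/- libraries, and 37.8 ± 5.84 on C and 35.1 ± 3.66 on G in UNG+/+ libraries (SD, n = 4 each). This balance rested on copies 4 and 5: without them the excess on C was between 1.77 and 2.01 times that on G in UNG-/- and between 1.63 and 1.82 times in UNG+/+ libraries. Single copies were not balanced. C was higher than G in all 8 UNG libraries at copies 2, 3 and 6, and G was higher than C in all 8 at copies 4 and 5. Transitions at C392 were 2.58 times those at G391 in UNG-/- and 2.55 times in UNG+/+ cells, whereas those at G456 were 3.04 and 2.59 times those at C457, in the same order. Copies 2 and 4, which share CAGCTG, thus leaned to opposite strands, and C282 exceeded C457 with 281 ± 75.8 and 42.2 ± 16.4 in UNG-/- and 90.8 ± 16.1 and 21.3 ± 1.92 in UNG+/+ libraries (SD, n = 4 each).

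**Figure D5:**
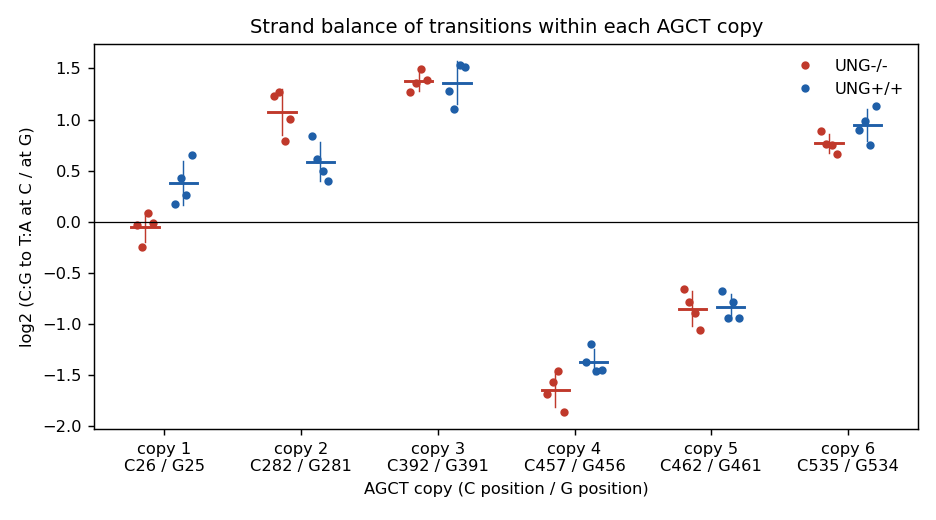
Log2 ratio of C:G to T:A frequency at the C over that at the G of each copy. Dots are libraries and bars the mean ± SD (4 per genotype), and the line at 0 marks equal frequencies. Copies 2, 3 and 6 lie above 0 and copies 4 and 5 below 0 in every library of both genotypes.

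The genotype moved this balance little. A test of strand by genotype over the 32 GC steps of the fragment (edgeR quasi-likelihood) found the C favoured more in UNG-/- than in UNG+/+ cells at copy 2 (log2 0.49 ± 0.12, SE, adjusted p = 0.0106) and less at copy 1 (-0.44 ± 0.16, SE, adjusted p = 0.0464), against 18.8% of steps called in each direction. At copy 2 the log2 ratio of C over G was 1.07 ± 0.222 in UNG-/- and 0.59 ± 0.192 in UNG+/+ libraries, and at copy 1 -0.05 ± 0.142 and 0.38 ± 0.215, in the same order (SD, n = 4 each). The other 4 copies were not called, with differences between -0.27 and 0.02. The called copies were 16.7% of the copies in each direction, near the 18.8% over all steps. Copy 2 held with the replicate number as a block (adjusted p = 3.15e-07) and copy 1 did not (0.0640). Neither call held in limma (adjusted p of 0.0679 at copy 2 and 0.0698 at copy 1) or with UNG-/- library 3 as the only UNG-/- library (0.653 and 0.670). Copy 2 was also lost without UNG+/+ library 4 (adjusted p = 0.0507), and copy 1 without any UNG-/- library or without UNG+/+ library 2, 3 or 4 (0.0510 to 0.151).

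C:G to G:C leaned to the C at every copy, also at the copies where transitions leaned to the G. C:G to G:C in UNG+/+ libraries averaged 10.9 ± 2.84 per 10000 on C and 5.18 ± 1.47 on G (SD, n = 4 each). Before subtraction of the AID-/- background, the C was the higher of the pair in all 4 UNG+/+ libraries at all 6 copies. At copies 2, 3 and 6 this was also the strand with more transitions, and at copies 4 and 5 it was the other strand. Also before subtraction, C:G to A:T was higher on the C in all 4 UNG+/+ libraries at copies 2, 3, 5 and 6, and in 2 of the 4 at copies 1 and 4. AID-/- libraries had more of it on C than on G too, 5.71 ± 1.48 and 2.57 ± 0.0435 (SD, n = 2 each). With the AID-/- means subtracted, the mean UNG+/+ excess was 1.99 at C462 and 2.19 at G461 of copy 5. At copy 4 it was 2.10 on C and 4.34 on G, and at copy 1 -1.59 and 1.94. The C stayed higher at copy 2 (16.0 and 1.87), copy 3 (6.69 and 0.648) and copy 6 (8.74 and 3.34). At copy 4, C:G to G:C at C457 was 7.21, 8.94, 6.04 and 5.69 in UNG+/+ libraries 1 to 4, against 5.26, 5.07, 3.56 and 5.18 at G456. At copy 2, C282 averaged 14.2 ± 3.24 and G281 2.63 ± 1.61 in UNG+/+ libraries (SD, n = 4 each), a ratio of 5.40 for C:G to G:C where that for C:G to T:A was 1.51. AID-/- libraries also had more C:G to G:C on C than on G of the copies, 0.791 ± 0.281 and 0.320 ± 0.0193 (SD, n = 2 each), so part of the raw difference lies in the background. After subtraction the C still had 2.09 ± 0.162 times the C:G to G:C excess of the G in UNG+/+ libraries (SD, n = 4), and 1.07 ± 0.0617 times the C:G to T:A excess. Without copies 4 and 5, the C:G to G:C ratio was 2.42 ± 0.240 (SD, n = 4). The AID-/- means of C:G to G:C were 0.670 at C457 and 0.0934 at G456, and 1.15 at C462 and 0.188 at G461. With these subtracted, the mean UNG+/+ excess was 6.30 at C457 and 4.67 at G456, and 7.17 at C462 and 4.47 at G461. In UNG+/+ library 4 at copy 4, and library 3 at copy 5 (4.07 on C and 3.46 on G), the subtracted C no longer exceeded the G.

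A test of this pattern, chosen after the values were seen, compared C:G to G:C with C:G to T:A between the C and the G of each GC step in UNG+/+ libraries (edgeR quasi-likelihood). It used read counts without subtraction of the AID-/- background. The C had relatively more C:G to G:C at copies 2 (log2 1.99 ± 0.36, SE, adjusted p = 2.90e-05), 4 (1.91 ± 0.35, SE, adjusted p = 2.92e-05), 5 (1.62 ± 0.39, SE, adjusted p = 0.000607) and 1 (1.04 ± 0.45, SE, adjusted p = 0.0452). Copies 3 (-0.53 ± 0.34, SE, adjusted p = 0.182) and 6 (-0.08 ± 0.55, SE, adjusted p = 0.881) were not called. Of all 27 GC steps tested, 51.9% were called in the same direction. Among the 21 steps outside the palindromes, 10 were called in that direction and 3 in the other. The call at copy 1 was lost without UNG+/+ library 1, 3 or 4 (adjusted p of 0.0714 to 0.192), and the other 3 calls held in limma and without any UNG+/+ library.

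The A and T that complete each copy were measured as the nearest A:T pairs. Mutation of A:T pairs near AID targets is attributed to mismatch repair, which resynthesises a stretch of DNA around the lesion. Substitutions at the 11 such positions used (position 455 was left out) averaged 1.37 ± 0.245 per 10000 in UNG-/- and 1.34 ± 0.141 in UNG+/+ libraries (SD, n = 4 each), against 1.37 and 1.55 in the AID-/- libraries, so all 3 genotypes overlapped. None of the 9 tested differed between UNG-/- and UNG+/+ cells (edgeR quasi-likelihood, 0% of 278 A:T positions called, 0 of the 9 and 18 of the 278 at an unadjusted p under 0.05, and none of the 9 by DESeq2 or limma), with log2 differences between -0.27 and 0.39.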

How the data were processed

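The members and classes were chosen with earlier results of these data known. The deposited tables give, per the file headers, the counts of quality-filtered reads (Phred above 20) and of reads with each substitution at 560 positions, which the authors made from a PCR fragment amplified for 25 cycles, sheared to 100 to 300 bp and amplified for 10 more, per the labels' protocols. They also hold a fraction, per the file headers substituted over filtered reads, which the counts returned exactly. Per the submitters' processing notes, CASAVA 1.7, Novoalign 2.07.04 and SAMtools 0.1.11 were used. The 5 polymorphic positions (225, 376, 454, 455 and 486) and 1 with under 1000 reads were left out, which left 243 C:G and 311 A:T positions.

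Frequencies are substituted over filtered reads per 10000, and an excess subtracts the AID-/- mean. A position was tested if 2 or more libraries had 10 or more substituted reads there, with edgeR 4.0.16 (quasi-likelihood, log coverage as offset, R 4.3.3) on all 10 libraries, with Benjamini-Hochberg adjustment over all C:G, A:T or GC-step positions at 0.05. Type and strand interactions used the 8 UNG libraries with library as a term. Scripts were tested on simulated data. Alternatives were TMM, DESeq2 1.42.0, limma 3.58.1 (pseudocount 1e-05), no filter, a replicate block, batches and libraries left out. Within a group, every pair of libraries exceeded sampling noise (chi-square per position 2.38 to 62.6), so none was merged. All 12 palindromic positions are named, and other positions only if among the 3 highest in UNG-/- transitions or UNG+/+ C:G to G:C. Limits for a count of 0 are 3 reads over coverage. Sequences are those of the deposited tables, and the chromosome of Ighm is from RefSeq. Summaries and figures were made in Python 3.11.15 (pandas 2.3.3, numpy 2.4.6, scipy 1.17.1, matplotlib 3.10.9).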

Additional observations from a re-analysis of the deposited data

Results flagged for a closer look

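Among 90 sets of 4 libraries, 4 had a library whose gap to the others was large against the range of its group, and chance gives about 1 in 20. The mean C:G to T:A of the 12 positions was 43.4 per 10000 in UNG+/+ library 1, against 33.2 to 34.6 in the other UNG+/+ libraries. At C535, C:G to G:C was 2.90 in UNG-/- library 1, where the others had 0.353 to 0.707. At G456, C:G to G:C was 3.56 in UNG+/+ library 3, where the others had 5.07 to 5.26. At C282, C:G to A:T was 5.21 in UNG-/- library 3, where the others had 2.79 to 3.20. Outside the positions used, UNG-/- libraries 1, 2 and 4 carried a second base in 3.49%, 3.55% and 1.96% of filtered reads at position 455 of copy 4, against 0.0120 to 0.0250% in UNG+/+ libraries. What these values share with the results was not tested.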

How the results depend on the processing

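The coverage offset keeps differences in load. TMM removes them, but it was run on substituted reads without the coverage offset. Differences between libraries in the coverage of a position were thus not corrected under TMM. Under TMM, UNG-/- against UNG+/+ calls fell to 3 (all substitutions), 1 (C:G to T:A) and 3 (C:G to A:T), and the transition difference turned negative at G281 (-0.53, called lower), C282 (-0.053), G456 (-0.36) and C457 (-0.50). Leaving out single libraries kept the C:G to T:A and C:G to G:C counts of UNG-/- against UNG+/+ at 12. It gave 6 to 11 for C:G to A:T, 0 to 3 for C:G to A:T in UNG+/+ against AID-/- cells, and 0 to 2 for strand by genotype. C:G to A:T calls were 3 within replicate numbers 3 and 4, and 0 with UNG-/- library 3 alone, an alternative chosen after seeing the data in which the lone library is assumed to vary like the others. Strand by genotype gave 0 calls in limma, 0 with UNG-/- library 3 alone and 1 (copy 2) with the replicate block. The deviations of same-numbered libraries correlated by -0.00681 to 0.262 for C:G to T:A and by 0.0691 to 0.364 for all substitutions. Not every pair passed 0.1, and the labels name no shared batch, so the numbers were not taken as pairs. The block changed no other count. Excess of C:G to T:A in UNG+/+ cells was 35.3, and 29.5 as a median over positions or 40.8 from pooled reads. That of C:G to G:C in UNG-/- cells was 0.0282, and 0.584 unsubtracted. That of C:G to A:T was -1.14 in UNG-/- cells, but 3.00 unsubtracted and 0.150 in UNG-/- library 3, and 4.02 in UNG+/+ cells, but 8.16 unsubtracted, 4.70 without copies 4 and 5 and 2.49 as a median. The causes were not tested. Depth limits copy 6 most, and C:G to A:T is limited by its background.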
